A study of Mus musculus with 4 samples.

Results

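The ionotropic glutamate receptor and GABA-A receptor subunit genes were followed in immortalized multipotent otic progenitors (iMOPs), a mouse cell line derived from the inner ear. The members were picked by gene symbol alone: Gria1 to Gria4 (AMPA receptors), Grik1 to Grik5 (kainate receptors), Grin1, Grin2a to Grin2d and Grin3a to Grin3b (NMDA receptors), and the alpha, beta, gamma, delta, epsilon, pi, theta and rho subunits of the GABA-A receptor. The rule found 35 genes among the 49997 in the deposited tables, 16 for glutamate receptors and 19 for GABA-A receptors. Only wild-type cells were compared, as 2 RNA-seq libraries of proliferating cells and 2 of iMOP-derived neurons, each labelled a biological replicate. Proliferating cells were kept in DMEM/F12 with B27, carbenicillin at 25 µg/ml and bFGF at 20 ng/ml, a growth factor that keeps them dividing. Neurons were made in Neurobasal with N21, glutamine at 2 mM and K03861 at 1 µM, which blocks the cell cycle kinase CDK2. All libraries came from 1 immortalized line, so values speak for that line.

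Ionotropic receptors are ligand-gated ion channels assembled from several subunits. Glutamate opens AMPA, kainate and NMDA receptors, which let cations in and carry fast excitatory transmission, also at the synapse between hair cells and the spiral ganglion neurons of the inner ear. GABA opens the chloride-permeable GABA-A receptors, whose common synaptic form holds alpha, beta and gamma subunits and whose effect depends on the chloride gradient of the cell. Receptors of both kinds are also known from dividing neural progenitors.

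The libraries held 7446361 to 14484011 counts, of which a single 18S ribosomal RNA row took 53.3 to 76.1%. Its share followed the replicate number, with 53.3 and 59.4% in replicate 1 of proliferating cells and neurons and 75.0 and 76.1% in replicate 2. The counts left numbered 3474760 and 2595578 in proliferating replicates 1 and 2 and 3850766 and 3461544 in neuron replicates 1 and 2, so subunit genes at these levels rest on few counts. Levels across libraries are given as CPM, the usual depth-scaled unit, here counts over the TMM-scaled library size (12171010, 7387554, 11888328 and 9809369 in the same order). Replicates within a group stood apart: the summed CPM of 11 neuronal marker genes was 140.9 and 338.7 in proliferating cells and 180.8 and 332.0 in neurons, and that of 4 proliferation genes was 282.3 and 42.1 in proliferating cells and 359.0 and 192.5 in neurons. Neither sum separated the groups, although without Tubb3, left out after its values were seen, the other 10 neuronal markers summed to 121.8 and 145.1 CPM in proliferating cells and 152.1 and 227.4 in neurons. Most of that smaller sum was Map2, with mean CPM of 93.1 in proliferating cells and 131.0 in neurons. Of the 11 neuronal markers 10 were tested in edgeR, 6 with log2 fold changes above 0 and 4 below. Elavl4, a neuronal RNA-binding protein, had 92 and 90 counts in proliferating cells and 211 and 373 in neurons. Stmn2, another of these markers, had 4 and 60 counts in proliferating cells and 3 and 35 in neurons. Of 9 otic neuron markers 8 were detected, with summed CPM of 103.1, 63.9, 36.2 and 66.1 in the same library order. Prox1 (184, 90, 247 and 318 counts) and Neurod4 (21, 26, 46 and 89) were higher in each neuron library by CPM, Ntrk2 (890, 241, 49 and 61) was lower, and Isl1 had 0 counts in all 4. The summed CPM of 6 astrocyte markers was 80.3, 42.5, 18.3 and 52.4 in the same order, and that of 7 oligodendrocyte lineage markers was 19.2, 114.9, 20.7 and 9.58. In RNA from whole cultures, fewer cells that express a gene and less RNA per cell cannot be told apart.

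Most glutamate receptor genes were detected and most GABA-A receptor genes were not. At least 1 count in any library was found for 17 of the 35 genes, against 69.4% of RefSeq protein-coding genes: 12 of the 16 glutamate receptor genes and 5 of the 19 GABA-A receptor genes. At least 10 counts in some library were reached by 13 (10 and 3), against 52.4% of protein-coding genes. By library, members with a count numbered 15 and 12 in proliferating cells, where 63.6 and 57.9% of protein-coding genes had one, and 14 and 14 in neurons, where 62.8 and 61.2% did. Detection did not separate the groups. The 18 genes at 0 in all 4 libraries included Gria1 and Gria3 (AMPA), Grik3 (kainate) and Grin2a (NMDA). Of the GABA-A receptor they included Gabrd, the delta subunit of receptors outside synapses, and Gabre, Gabrp, Gabrq, Gabrr2 and Gabrr3. A count of 0 allows up to 3 counts, or 0.246 and 0.406 CPM in proliferating replicates 1 and 2 and 0.252 and 0.306 CPM in neuron replicates 1 and 2. Grik1, Grin2c, Gabra2 and Gabrr1 were seen with at most 2 counts in any library, near that limit.

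The detected GABA-A receptor genes, other than Gabrr1, lay side by side in the genome. Most genes of the family lie in clusters, and all 4 genes of the chromosome 5 cluster (Gabrg1, Gabra2, Gabra4 and Gabrb1, over 1398.5 kb) had counts. None was detected of the 3 genes in the X chromosome cluster, and of the rho pair on chromosome 4 only Gabrr1 had 1 count. The summed counts of the chromosome 5 cluster were 142 and 5 in proliferating replicates 1 and 2 and 14 and 24 in neuron replicates 1 and 2. Proliferating replicate 1 was far above the other libraries, and proliferating replicate 2, of the same group, was the lowest. Commd8 and Nfxl1, beyond the cluster, had the same highest and lowest library but a narrower spread: Commd8 ranged from 3.93 to 9.61 CPM and Nfxl1 from 7.31 to 13.9 CPM. Cox7b2, inside the cluster, had 0 counts throughout. Gabra4 and Gabrb1 overlap over 388 bases on opposite strands, and the sources used here do not give the strand setting of the counting, so reads in that stretch could belong to either gene.

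**Figure D1:**
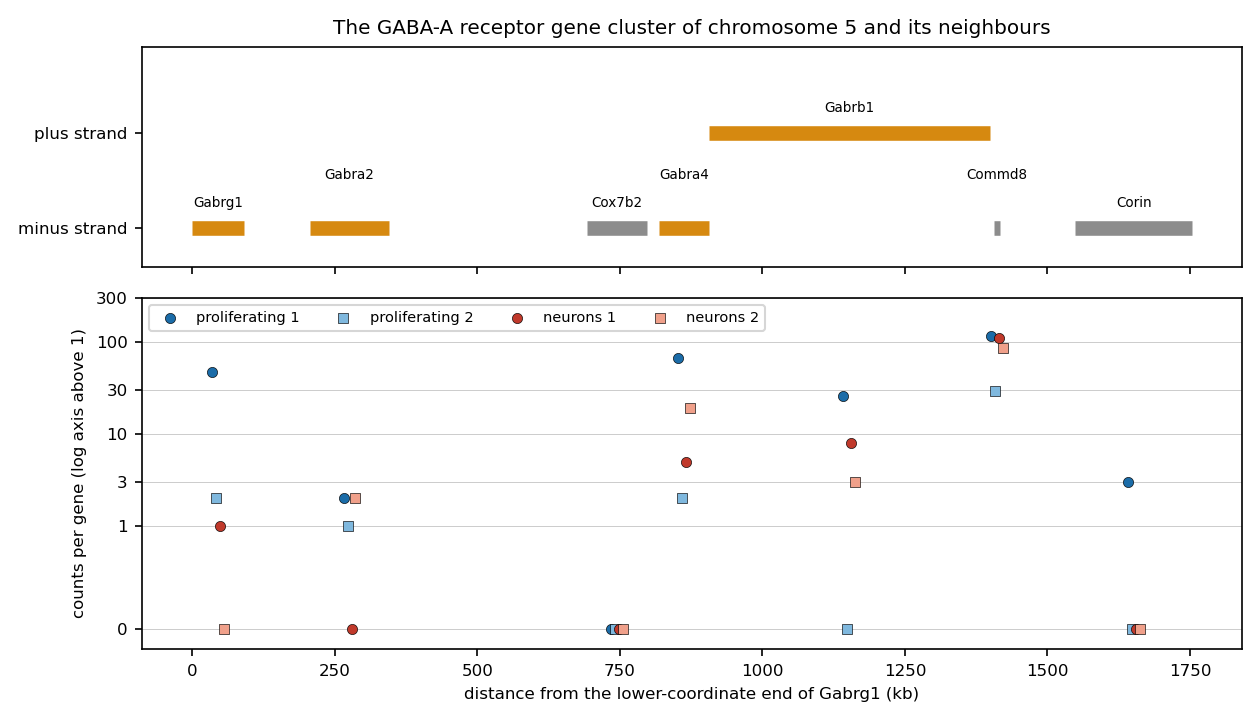
The upper panel maps the GABA-A receptor genes of the chromosome 5 cluster (orange) and neighbouring genes (grey) by strand, with distance in kb on the horizontal axis. The lower panel gives each gene's counts in each library on an axis that is logarithmic above 1; proliferating replicate 1 is highest for Gabrg1 (47), Gabra4 (67) and Gabrb1 (26), and Cox7b2 is at 0.

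The sequences before the start sites of the 4 cluster genes are shown because these genes hold nearly all GABA-A receptor counts and differ in CpG content. They come from the RefSeq promoter table of build GRCm38.p6 (mm10), 5′ to 3′ on the gene's strand, with CG dinucleotides in capitals. Windows are chr5:70842618-70842867 (minus strand) for Gabrg1, chr5:71095850-71096099 (minus) for Gabra2, chr5:71658364-71658558 (minus, from 250 to 56 bases before the start) for Gabra4, and chr5:71699825-71699931 (plus, before the second annotated start) for Gabrb1. The last 2 windows were shortened to leave out exons. The 250 bases before the first annotated start of Gabrb1 (chr5:71657671-71657920) are not printed and held 18 CpG and 64.4% GC. That first-start window enters the median given below.
Gabrg1: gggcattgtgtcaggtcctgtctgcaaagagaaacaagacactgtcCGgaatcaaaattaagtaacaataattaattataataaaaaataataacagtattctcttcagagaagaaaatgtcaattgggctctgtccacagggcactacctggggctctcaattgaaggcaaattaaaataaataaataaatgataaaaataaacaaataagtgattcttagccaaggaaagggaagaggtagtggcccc
Gabra2: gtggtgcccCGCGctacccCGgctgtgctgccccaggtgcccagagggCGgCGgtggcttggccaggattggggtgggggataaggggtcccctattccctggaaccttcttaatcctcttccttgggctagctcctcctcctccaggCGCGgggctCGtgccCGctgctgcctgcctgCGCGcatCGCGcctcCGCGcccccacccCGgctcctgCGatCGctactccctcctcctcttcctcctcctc
Gabra4: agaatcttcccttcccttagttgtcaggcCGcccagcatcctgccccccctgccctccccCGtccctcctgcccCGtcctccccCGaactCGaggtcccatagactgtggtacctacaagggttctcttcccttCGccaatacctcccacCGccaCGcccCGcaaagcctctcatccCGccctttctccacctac
Gabrb1: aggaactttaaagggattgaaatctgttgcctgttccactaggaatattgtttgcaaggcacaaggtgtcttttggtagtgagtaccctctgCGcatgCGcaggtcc
The Gabrg1 window held 1 CpG and 35.6% GC, and the Gabra2 window 18 CpG and 70.0% GC. Yet in proliferating replicate 1 Gabrg1 had 47 counts and Gabra2 had 2, so the order of CpG content was not the order of level there. In the other libraries both genes had at most 2 counts, too few to order them. Over the 250 bases before the start, the 14 detected members in the promoter table had a median of 15.5 CpG (range 1 to 36) and the 11 undetected members a median of 8 (0 to 42), against 6 in all 32841 windows of the table. The ranges overlapped, and 10 of the 35 members had no entry.

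The AMPA receptor was represented by Gria2 and Gria4 alone. Gria2 (chr3:80681450-80804227, minus strand) encodes the subunit that, after RNA editing, makes AMPA receptors largely impermeable to calcium. Its promoter is shown because it held the only close match among the 25 member windows to the RE1 element, which the repressor REST binds at many neuronal genes. The RE1 motif was searched on both strands of each window, with up to 2 mismatches at the 19 positions that its consensus defines. The window is chr3:80802836-80803085 (GRCm38.p6, minus strand, RefSeq), with the match in capitals.
Gria2: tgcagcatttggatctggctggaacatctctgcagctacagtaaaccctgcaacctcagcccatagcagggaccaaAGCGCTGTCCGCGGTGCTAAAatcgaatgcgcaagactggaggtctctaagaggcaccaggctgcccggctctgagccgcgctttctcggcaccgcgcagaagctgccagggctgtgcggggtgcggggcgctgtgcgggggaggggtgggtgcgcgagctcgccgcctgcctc
The match lies 174 to 154 bases before the start on the opposite strand and has 2 mismatches. The start used, chr3:80802835, is an annotated start inside the gene's span, so window and match also lie within that span. Only 8 of 32841 promoter windows (0.0244%) held such a match, and the next closest member window had 6 mismatches. A match of letters does not show binding, and none was measured here. The E-box CAGATG (or its reverse complement CATCTG) was in 3 of 25 member windows (Gabra5, Gabrr1 and Grin3b) and in 14.4% of all windows.

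Gria2 had 67 and 3 counts in proliferating replicates 1 and 2 and 5 and 29 in neuron replicates 1 and 2, or 5.50, 0.406, 0.421 and 2.96 CPM. Gria4 (chr9:4417893-4796234, minus strand), which forms fast-gating AMPA receptors, had 159, 16, 15 and 43 counts in that order. For both genes proliferating replicate 1 was highest, neuron replicate 2 came next and the remaining libraries were low, so the groups overlapped. Proliferating cells averaged 7.61 ± 7.71 CPM of Gria4 against 2.82 ± 2.21 in neurons (SD, n = 2), and 2.96 ± 3.61 CPM of Gria2 against 1.69 ± 1.79. In both genes the SD of the proliferating cells exceeded the difference in means. The edgeR log2 fold change of neurons over proliferating cells was -1.46 (SE 0.92) for Gria4 and -0.86 (SE 1.20) for Gria2, each with a Benjamini-Hochberg adjusted p of 0.9998. Without proliferating replicate 1 these values were 0.33 and 1.96, so the sign of each rested on that library.

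Kainate receptor transcripts were mainly those of Grik5, the member with the most even level among those with at least 10 counts. Grik5 (chr7:25009849-25075694, minus strand) encodes a high-affinity kainate subunit that forms channels only together with Grik1, Grik2 or Grik3. It had 132 and 80 counts in proliferating cells and 103 and 120 in neurons, or 10.8, 10.8, 8.66 and 12.2 CPM. The means were 10.8 ± 0.0116 and 10.4 ± 2.52 CPM (SD, n = 2), the neuron libraries lay on either side of the proliferating ones, and the edgeR log2 fold change was -0.05 (SE 0.48, adjusted p = 0.9998). Its mean CPM was above that of 67.0% of the tested genes. The possible partners were scarce: Grik2 had 7, 5, 7 and 14 counts, Grik1 had 2 counts in neuron replicate 1 and 0 elsewhere, and Grik3 had none. Grik4, the other high-affinity subunit, had 17, 2, 7 and 16 counts, high in the first proliferating and the second neuron library and low in the others. Its log2 fold change was 0.33 (SE 1.04), and 1.93 without proliferating replicate 1.

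Of the NMDA receptor genes, 6 of 7 were detected, but the obligatory subunit had few counts. Grin1, which every NMDA receptor contains, had 10 and 0 counts in proliferating cells and 0 and 5 in neurons. Among the glutamate-binding subunits, Grin2b, prominent in embryonic brain, had 22, 1, 3 and 31 counts, and Grin2d, another early subunit, had 25, 10, 8 and 27. Both were high in proliferating replicate 1 and neuron replicate 2 and low in the other libraries, and the groups overlapped. The edgeR log2 fold changes were 0.71 (SE 1.31) for Grin2b and -0.02 (SE 0.83) for Grin2d, and without proliferating replicate 1 that of Grin2b was 3.47. Grin3b and Grin3a encode glycine-binding subunits that lower the calcium flow through the channel. Grin3b (chr10:79970397-79977190, plus strand) had 15 and 20 counts in proliferating cells and 8 and 5 in neurons, or 1.97 ± 1.04 and 0.591 ± 0.115 CPM (SD, n = 2). Grin3a had 15 and 7 counts in proliferating cells and 10 and 3 in neurons, or 1.09 ± 0.201 and 0.573 ± 0.379 CPM. In both genes the CPM of each neuron library was below that of each proliferating library. Grin3b had the lowest log2 fold change among the tested members, -1.69 (SE 0.84), with an unadjusted p of 0.0823 in edgeR and an adjusted p of 0.9998. For Grin3a the value was -0.90 (SE 0.95). Grin3b shares 71 bases with Tmem259, a gene with 61 to 95 counts per library, so some of its few reads could be those of Tmem259.

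Among GABA-A receptor genes, Gabra4, Gabrb1 and Gabrg1 reached 10 counts, all of them in proliferating replicate 1 and only Gabra4 in a second library. Gabra4 (chr5:71569734-71658308, minus strand), an alpha subunit typical of receptors outside synapses, had 67 and 2 counts in proliferating cells and 5 and 19 in neurons. Its means were 2.89 ± 3.70 and 1.18 ± 1.07 CPM (SD, n = 2), the groups overlapped, and the edgeR log2 fold change was -1.34 (SE 1.22, adjusted p = 0.9998). Without proliferating replicate 1 it was 2.01. Gabrb1 (chr5:71657921-72149572, plus strand), a beta subunit, had 26, 0, 8 and 3 counts. Gabrg1 (chr5:70751047-70842617, minus strand), a gamma subunit, had 47 and 2 counts in proliferating cells and 1 and 0 in neurons, or 2.07 ± 2.54 and 0.0421 ± 0.0595 CPM. The groups of Gabrg1 did not overlap, but nearly all of its counts came from 1 library.

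Gabrg1 and Gabrb1 did not pass the filter on low counts and have no value in the main test. When edgeR was run on every gene with a count, Gabrg1 was called lower in neurons, with a log2 fold change of -5.20 (SE 1.25) and an adjusted p of 0.00894, where 0.472% of 25859 genes were called lower and 0.159% higher. Without proliferating replicate 1 the value was -2.34, with an adjusted p of 0.839 in edgeR. Leaving out neuron replicate 1 gave an adjusted p of 0.450, leaving out neuron replicate 2 gave 0.996, and leaving out proliferating replicate 2 gave 0.000235. The call therefore held in 1 of these 4 edgeR fits, that which took proliferating replicate 1 alone for its group. For these 4 fits the share of all genes called was not computed, so how usual such a call is stays unknown.

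**Figure D2:**
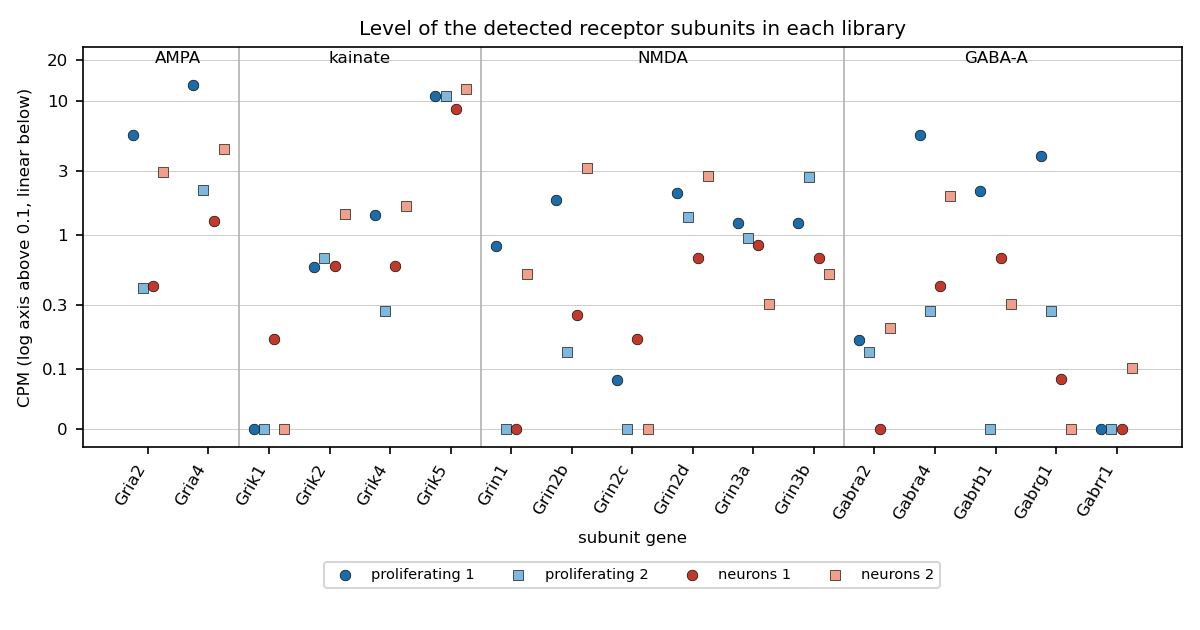
CPM of the 17 detected subunit genes in each library, on an axis that is logarithmic above 0.1 and linear below. Grik5 lies between 8.66 and 12.2 CPM in all 4 libraries, while Gria2, Gria4, Gabra4, Gabrb1 and Gabrg1 are highest in proliferating replicate 1.

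To compare levels between genes, counts must be divided by transcript length, and the length matters here. The length implied by the deposited RPKM was 27.1 times that of the longest GENCODE transcript for Gria2. It was 18.7 times for Grik5, 13.5 times for Gria4 and 3.06 times for Gabrg1. For Gria2 (281156 bases) and Grik5 (75811 bases) the implied length exceeded the span of the gene itself, so it was no transcript length. Shares by RPKM are given as deposited and are not shares per transcript length. On the deposited RPKM scale Grik5 made up 23.9 and 31.1% of the summed glutamate receptor level in proliferating replicates 1 and 2 and 45.1 and 37.5% in neuron replicates 1 and 2. Gria4 (29.7%) exceeded it in proliferating replicate 1 and Grin3b (45.7%) in proliferating replicate 2. With CPM per kb of the longest transcript, Grik5 was first in every library, with 37.6, 60.2, 68.8 and 54.9%, and Gria4 held 33.8, 8.99, 7.48 and 14.7%. The share of Grik5 was thus higher in each neuron library than in each proliferating library by RPKM, but not per kb of the longest transcript.

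For the GABA-A receptor, the leading subunit also depended on the length used. The length implied by RPKM was 8.57 times the longest transcript for Gabra4 but 2.09 times for Gabrb1. Per kb of the longest transcript Gabra4 led with 57.4 and 45.2% in proliferating cells and 60.6 and 82.3% in neurons. By RPKM its share was 30.7, 20.5, 29.0 and 56.2%, and Gabrg1 (52.0 and 49.6%) led in both proliferating libraries and Gabrb1 (57.0%) in neuron replicate 1. These shares rest on 142, 5, 14 and 25 counts, so those of proliferating replicate 2 and neuron replicate 1 carry little precision. All members together had 612, 149, 184 and 318 counts, or 0.0176, 0.00574, 0.00478 and 0.00919% of the counts outside the 18S row.

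**Figure D3:**
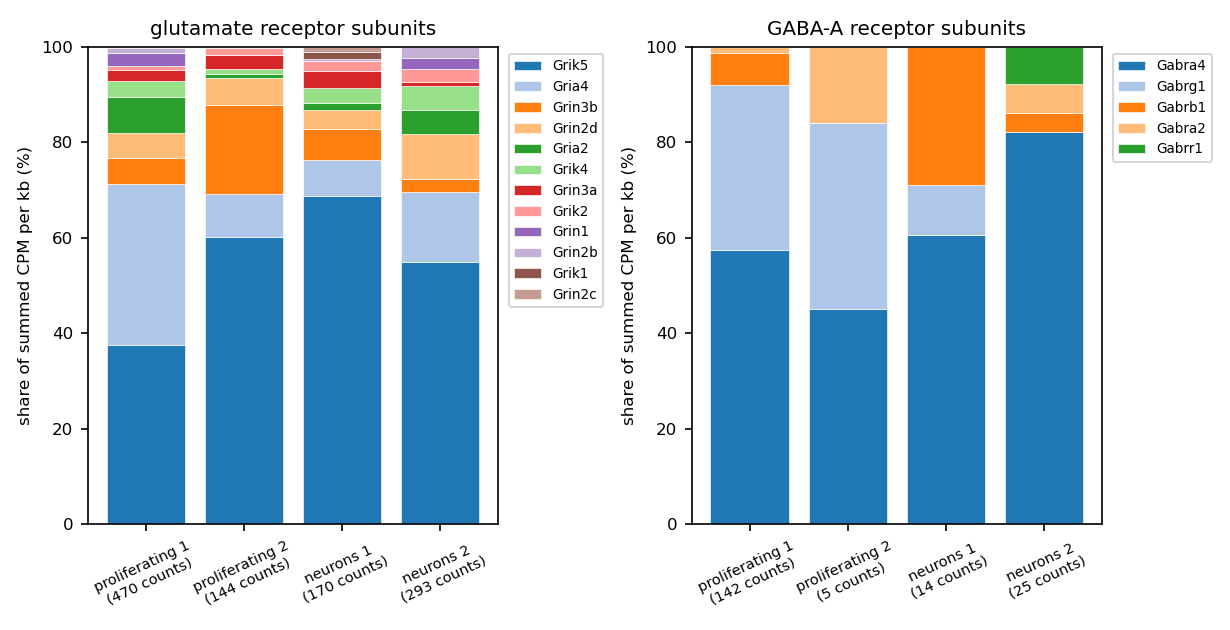
Stacked bars give each subunit's share in percent of the summed CPM per kb of the longest GENCODE transcript, for glutamate receptors (left) and GABA-A receptors (right) in each library, with the summed counts under each bar. Grik5 takes 37.6 to 68.8% of the glutamate receptor level and Gabra4 45.2 to 82.3% of the GABA-A receptor level.

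The tests between groups covered the 9 members that passed the low-count filter: Gria2, Gria4, Grik4, Grik5, Grin2b, Grin2d, Grin3a, Grin3b and Gabra4. None was called higher or lower in neurons by edgeR's quasi-likelihood test at an adjusted p of 0.05, and none had an unadjusted p under that value. The background was as empty, with 0% of 12783 genes called in either direction by edgeR and 3.43% at an unadjusted p under 0.05. DESeq2 called 0.0939% of genes higher and 0.368% lower, and 0 members. With the replicate number as a block, edgeR called 0% of genes higher and 0.0235% lower, and again 0 members. Of the 9 log2 fold changes, 7 were below 0 and 2 above, with a median of -0.86 against 0.02 over all tested genes. The median was 0.33 without proliferating replicate 1, against 0.08 over all genes in that fit. With 2 libraries against 2, an exact two-sided permutation test of a single gene cannot go below p = 0.333. The biological coefficient of variation was 0.456.

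**Figure D4:**
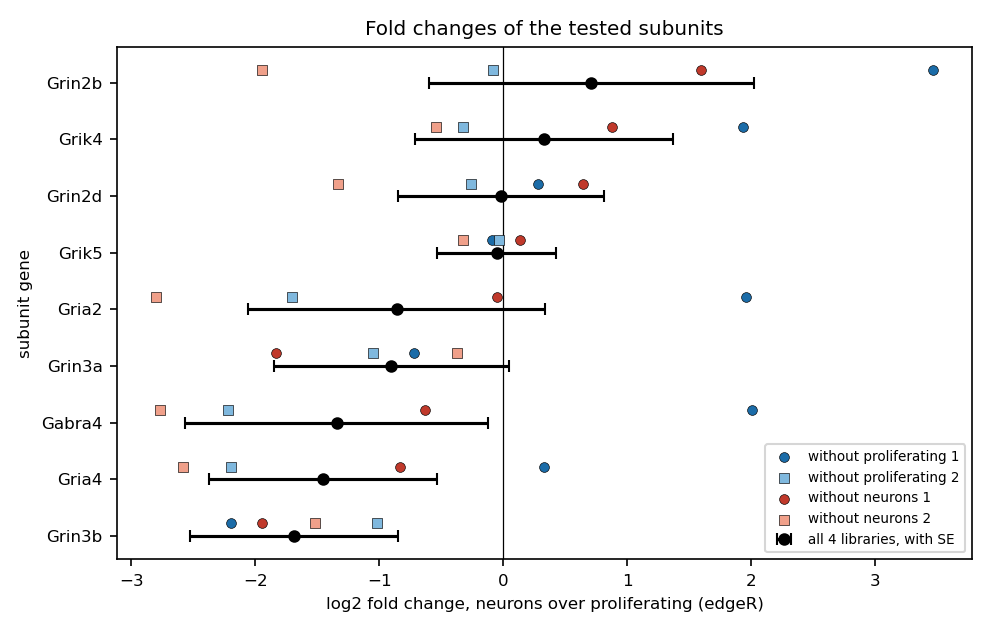
edgeR log2 fold changes of the 9 tested subunits, neurons over proliferating cells, with standard errors (black), and the values after leaving out each library (coloured). Gabra4, Gria2 and Gria4 are below 0 with all libraries and above 0 without proliferating replicate 1, while Grin3a and Grin3b stay below 0.

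The direction of change differed between the replicate pairs for most members with at least 10 counts, in part within counting error. In the first replicate pair all 9 tested members were lower in neurons, with a median log2 difference of -1.37 against 0.00 over all tested genes; in the second pair 2 of 9 were lower and the median was 0.96, against 0.07. Among the 13 members with at least 10 counts, 9 were lower in neurons in the first pair and higher in the second. That order was found in 25.3% of 14292 such genes, and pair differences of opposite sign in either order in 46%. Of the 9 members, Grin1 and Gabrb1 reached 10 counts in proliferating replicate 1 alone, so the count cut favoured their lower value in the first pair. Gria4 was 10.4-fold higher in proliferating cells in the first pair (95% exact interval 6.09 to 18.9) and 2.02-fold higher in neurons in the second (1.12 to 3.85). Gria2 was 13.1-fold higher in proliferating cells (5.34 to 41.6) and then 7.28-fold higher in neurons (2.26 to 37.3). Gabra4 was 13.1-fold higher in proliferating cells (5.34 to 41.6) and then 7.15-fold higher in neurons (1.73 to 63.3). For these 3 genes the opposite differences lay beyond counting error in both pairs. These intervals cover counting error only, since PCR copies can inflate counts and cultures vary.

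Grin2b showed the same order, with a 7.16-fold excess in proliferating cells (2.15 to 37.4) and then a 23.3-fold excess in neurons (3.89 to 952). Grin1, Grin2d, Grik4, Gabrb1 and Grik5 shared the signs, but not beyond counting error in both pairs. Within counting error were the first difference of Grik4 (0.935 to 6.77) and the second of Grin2d (0.954 to 4.71). In the second pair Gabrb1 had 0 and 3 counts and Grin1 had 0 and 5, and no interval was computed. For Grik5 the differences were 1.25-fold (0.960 to 1.64) and 1.13-fold (0.844 to 1.52), both within counting error. Only Gabrg1, Grin3a and Grin3b were lower in neurons in both pairs, and they are the members whose groups did not overlap (14.6% of 14292 genes in that direction). Grin3b was 1.83-fold higher in proliferating cells in the first pair (0.729 to 4.99) and 5.31-fold in the second (1.93 to 18.1), so the second difference alone exceeded counting error. Grin3a was 1.47-fold higher in proliferating cells in the first pair (0.616 to 3.65), within counting error. Its second difference rested on 7 and 3 counts. The 7 progenitor and radial glia markers, all detected in every library, had a summed CPM of 527.0 and 1363 in proliferating replicates 1 and 2 and 460.7 and 278.5 in neuron replicates 1 and 2, the same order as Grin3b, and their part in it was not tested. Among the 13 members with at least 10 counts, Grik2 alone was not lower in neurons in either pair.

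Of the 13 members, 7 had their highest CPM in proliferating replicate 1, against 21.8% of 14292 genes, and 5 in neuron replicate 2. For neuron replicate 2 the share over all genes was not computed, so how usual that count is stays unknown. Gabrg1, Gabrb1 and Grin1 reached 10 counts in proliferating replicate 1 alone, so the count cut favoured that library for them. For genes so near the cut the share of 21.8% is not a like comparison. The 6 astrocyte markers were also at their highest sum in proliferating replicate 1 (80.3 CPM), and all 6 were detected there, against 5, 5 and 3 in the others. Single markers differed in order: Aqp4 had 356, 2, 31 and 5 counts and Gfap 181, 89, 1 and 2, but Slc1a2 had 207, 67, 180 and 507, highest in neuron replicate 2, and Aldh1l1 had 5, 13, 4 and 0. The summed neuronal markers were at their lowest in proliferating replicate 1. Whether such cells have a part in the subunit levels was not tested.

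**Figure D5:**
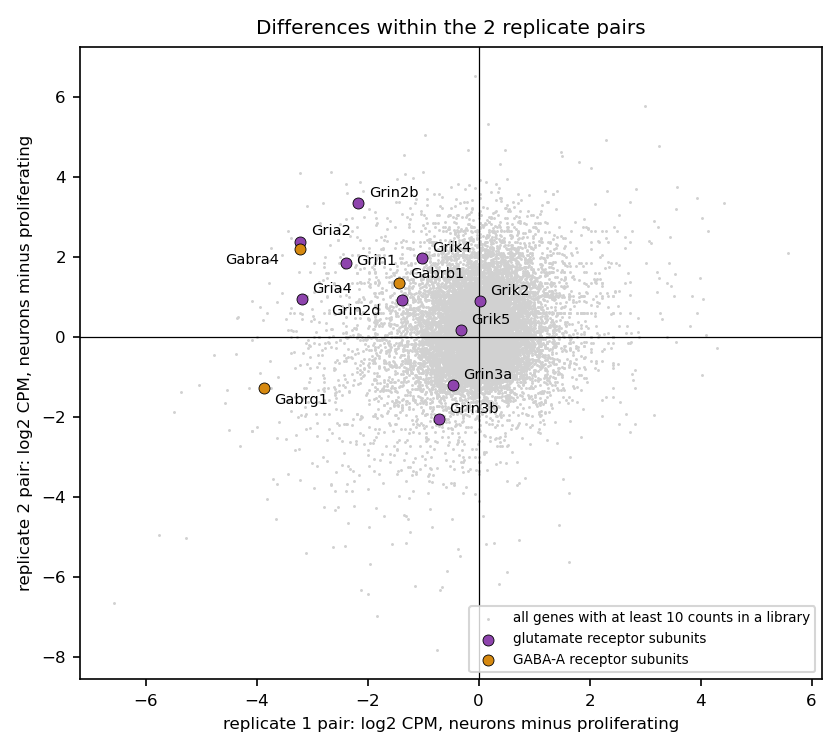
Each point is a gene, with the log2 CPM difference of neurons minus proliferating cells in replicate 1 on the horizontal axis and in replicate 2 on the vertical axis. Of the 13 labelled subunits, 9 lie to the left of 0 and above 0, that is, lower in neurons in the first pair and higher in the second, as 25.3% of all plotted genes (grey) do.

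Genes that act with these receptors were examined in 6 lists of 79 genes, of which 49 were tested. None passed the adjusted threshold in edgeR, and 1 of the 49 had an unadjusted p under 0.05, against 3.43% of all tested genes. That gene was Glul, glutamine synthetase, with 284 and 325 counts in proliferating cells and 115 and 128 in neurons. Its log2 fold change was -1.57 (SE 0.52) with an unadjusted p of 0.0185 and an adjusted p of 0.9998 in edgeR. By CPM both neuron libraries were below both proliferating ones, as in 14.6% of genes with at least 10 counts in a library.

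Transcripts of most auxiliary subunits and of all listed anchoring genes had at least 1 count in some library, as did 69.4% of protein-coding genes. Some were near 0: Dlg2 had 2, 0, 1 and 0 counts, Grip2 had 0, 0, 2 and 0, and Shisa7 had 1, 2, 1 and 3. Of 14 auxiliary subunit genes 11 were detected and 8 tested, 4 above and 4 below 0, with a median log2 fold change of -0.05. Neto2, which sets the gating of kainate receptors, had 225, 93, 151 and 220 counts, and Cacng4, an AMPA receptor partner, had 91, 176, 141 and 87. All 20 excitatory scaffold genes were detected and 14 were tested, 7 in each direction, with a median of 0.08. All 14 genes of inhibitory anchoring and GABA-A receptor trafficking were detected, and of 13 tested 4 were above and 9 below 0, with a median of -0.25. Gphn, gephyrin, the scaffold of inhibitory synapses, had 192, 46, 138 and 73 counts.

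Of 17 related receptors outside the rule (delta and metabotropic glutamate, GABA-B and glycine receptors), 13 were detected and 5 tested, 1 above and 4 below 0, with a median of -0.72. Gabbr2, a GABA-B receptor subunit, had 71, 15, 11 and 18 counts and a log2 fold change of -1.53 (SE 0.74, adjusted p = 0.9998 in edgeR). Genes that mark a transmitter phenotype were low. Slc17a6, a vesicular glutamate transporter, had 1, 0, 0 and 2 counts, Slc32a1, the vesicular GABA transporter, had 0 in all 4 libraries, and Gad1, which makes GABA, had 64, 5, 7 and 21. Gad1 thus had its highest value in proliferating replicate 1 too. In the list of transmitter synthesis and loading, 4 of 9 genes were tested, 2 in each direction, with a median of -0.58.

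RNA editing and chloride transport set how these channels behave, and all 5 genes of that list were tested, 3 above and 2 below 0, with a median of 0.10. Adarb1, the enzyme that edits Gria2 transcripts, had 263 and 160 counts in proliferating cells and 265 and 125 in neurons. Slc12a2, which brings chloride into the cell, had 333, 90, 234 and 225 counts. Slc12a5, the chloride exporter of mature neurons, had 15, 3, 22 and 3 counts. Neither transporter had groups that stood apart.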

How the data were processed

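RNA of 4 libraries, with 500 ng of input per the labels' protocols, was depleted of ribosomal RNA, made into libraries with a stranded kit and sequenced as read pairs of 150 bases. The authors deposited, per library, read counts and RPKM per gene; these columns are named in the file headers. HISAT2, SAMtools, featureCounts, DESeq2, deepTools 3.4.3 and the genome mm10 are named per the submitters' processing notes, with no roles. The annotation, the strand setting and the handling of reads with several matches are not given in the sources used here. The deposited RPKM divides by a total that includes the 18S row, so levels were compared between libraries as CPM computed here, and RPKM served for shares within a library.

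Deposited counts of all 4 libraries were fitted with edgeR 4.0.16 (R 4.3.3, limma 3.58.1): TMM scaling, filterByExpr (minimum count 10, total 15), group as the only term, the quasi-likelihood test, two-sided, and Benjamini-Hochberg adjustment over 12783 genes at 0.05. The fit was tested on simulated data. Pair differences used a prior count of 2 and intervals were exact conditional binomial ones at 95%. Tables and figures used Python 3.11.15, pandas 2.3.3, numpy 2.4.6, scipy 1.17.1 and matplotlib 3.10.9. Alternatives were DESeq2 1.42.0, its size factors in edgeR, library size alone, no gene filter, a filter of 1 CPM in 2 libraries, log2 of RPKM plus 1 or 0.1 with limma, a replicate block, the 18S row left out, other detection minimums, equal depth, another length and leaving out each library; leaving out libraries without the gene filter was added after seeing the data. Lengths for the alternative were those of the longest GENCODE transcript, since the RefSeq table gives gene spans.

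Replicate numbers stand in the titles, where replicate 2 of both groups carries the mark "set 2"; deviations from group means correlated at r = 0.33 across genes between same-numbered libraries, so the numbers were taken as pairs. The block was an alternative, as no source states the model.

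Any member could be named, and some are not reported here by name. Counts per library are given for those of at least 10 counts in any library or past the filter. From the other lists, genes with an unadjusted p under 0.05 or large counts came first, and others were chosen for their role after their values were seen. Members and lists were chosen with earlier results of these data known. Promoter windows of 250 bases came from RefSeq (GRCm38.p6), where 25 of 35 members matched by symbol.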

Additional observations from a re-analysis of the deposited data

How the results depend on the processing

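Depth and replicate number limit these results: 2 libraries per group, 2595578 to 3850766 counts outside the 18S row. No member was called under any setting that kept the gene filter. Without the filter 1 member (Gabrg1) was called lower. When that fit lost a library, the log2 fold change of Gria4 depended on which one. It was -2.21 if proliferating replicate 2 was dropped and 0.32 if proliferating replicate 1 was dropped. The share of all genes called was not computed for such unfiltered fits, so member calls in them lack a background. The counts below for leaving out a library come from fits that kept the filter. Over all tested genes, 0 were called higher in the main edgeR test, where 438 had an unadjusted p under 0.05. The count of genes called higher was 12 with DESeq2, 41 without the filter, 4 with the replicate block and DESeq2's size factors, and 3 to 29 leaving out a library. The count called lower was 2 with library size alone, 47 with DESeq2, 122 without the filter, 1 with log2(RPKM + 1), 2 with log2(RPKM + 0.1), 3 with the replicate block, 19 with the block and DESeq2's size factors, and 11 to 84 leaving out a library. With the replicate block, which pairs same-numbered libraries, no member's call changed and the log2 fold changes were -1.60 for Grin3b and -1.21 for Gria4.

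Directions turned for low genes. Grik4 was -0.39 with library size alone, -0.0065 with log2(RPKM + 1), -0.046 with log2(RPKM + 0.1) and -0.54 to 1.93 leaving out a library. Grin2b was -0.27, -0.0049, -0.035 and -1.95 to 3.47 in the same order. Grin2d was 0.022 without the filter and -1.33 to 0.64 leaving out a library. Leaving out a library gave -2.77 to 2.01 for Gabra4, -2.80 to 1.96 for Gria2, -2.59 to 0.33 for Gria4 and -0.32 to 0.14 for Grik5; Grin3a (-1.83 to -0.38) and Grin3b (-2.19 to -1.02) kept their direction. Library size alone moves all genes by -0.29 at the median and log2(RPKM + 0.1) by -0.17. These fits leave 1 library in a group, assumed to vary like the others. The cause of each turn was not tested.

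With a minimum of 10 counts, the members detected numbered 12 and 4 in the proliferating libraries and 3 and 8 in the neuron libraries, in place of 15, 12, 14 and 14. With the longest GENCODE transcript as length, the mean share of Grik5 moved from 27.5 to 48.9% in proliferating cells and from 41.3 to 61.9% in neurons, and that of Gabra4 from 25.6 to 51.3% and from 42.6 to 71.4%. The CPM filter kept the same 12783 genes, and Grin3a was not tested with the 18S row left out.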
